A study of Homo sapiens with 3 samples.

Results

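The 42 genes described here are interferon-stimulated genes, genes that cells transcribe when an interferon binds its receptor. They were set as a list of symbols, with earlier results of these arrays already known, and a probe belonged to a member when its RefSeq accession was that of the member. A probe was found for 40 of the 42 members, among 22439 named genes in all, and no probe was matched to IFI27 or SAMD9L. The 40 members had 52 probes, of which 11 members had several and 29 had 1.

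TK-10 is an established human renal carcinoma cell line. Cells received vehicle (0.1% DMSO), cordyceps at 750 ug/mL or sunitinib at 10 uM, each for 48 h, and total RNA was hybridised to single-colour Agilent arrays. Sunitinib is a receptor tyrosine kinase inhibitor given in renal cancer, and cordyceps is an insect-parasitic fungus that makes cordycepin (3′-deoxyadenosine). All 3 cultures shared DMEM with fetal bovine serum, antibiotics, nicotinamide, troglitazone and zinc sulfate. The label of the treated array names cordyceps, whereas the paper describes cordycepin at another dose, and the files do not settle which was used. Each condition was 1 culture on 1 array, so no test between conditions was possible, no p-value is given, and a difference has no replicate check.

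Type I interferons bind a receptor made of IFNAR1 and IFNAR2, whose kinases JAK1 and TYK2 phosphorylate STAT2 and other STAT proteins. STAT2 takes part with IRF9 in the complex ISGF3, which binds the interferon-stimulated response element in the promoters of its targets. The proteins made block steps of viral replication, bind viral RNA or feed back on the pathway, and many of these genes also keep a low level without added interferon.

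Promoter sequence was described first because the response element is the DNA feature that joins these genes. The windows run from 250 bases before to 50 after each annotated transcript start, and come from RefSeq on GRCh38.p14. A window was listed for 34 of the 42 members, and 8 members (IFIT2, IFITM2, IRF7, MX2, OAS2, OASL, TRIM22 and USP18) had none. The core of the response element was searched on both strands as GAAA, any 2 bases, and GAAA again. These letters occurred in 24 of the 34 members, 70.6%, against 4.38% of all 27305 genes with a window and 3.57% of all 35116 windows. The gamma-activated site, a DNA element of the interferon gamma response, was searched as TTCNNNGAA and occurred in 10 of the 34 members, 29.4%, against 9.38% of all genes. Both motifs were present in 6 members, and in 5 of them (BST2, EPSTI1, IFI27, IFITM1 and MX1) a match of one overlapped a match of the other. The response element core matched at 2 or more places in 14 members.

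The 170 bases before the start are shown for the 4 members with the highest ratios on the sunitinib array whose matches lie there. BST2 is shown as the only member more than 2-fold lower than vehicle with cordyceps and more than 2-fold higher with sunitinib. IRF1 is shown as the member that was lowest on the sunitinib array. Each stretch runs 5′ to 3′ along the gene. Capitals mark the response element core on either strand, except in IRF1, where the core was not found and capitals mark TTCNNNGAA. The IFITM1 stretch ends inside its second match, which runs on past the start.
IFITM1, chr11:313870-314039, + strand: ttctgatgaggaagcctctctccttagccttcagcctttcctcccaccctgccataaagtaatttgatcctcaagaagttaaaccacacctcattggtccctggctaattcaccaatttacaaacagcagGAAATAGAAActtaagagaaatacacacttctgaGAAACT
IFIT1, chr10:89392453-89392622, + strand: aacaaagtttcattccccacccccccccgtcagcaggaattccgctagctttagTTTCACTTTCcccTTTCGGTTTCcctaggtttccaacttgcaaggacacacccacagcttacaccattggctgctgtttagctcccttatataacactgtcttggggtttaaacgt
IFI44L, chr1:78620278-78620447, + strand: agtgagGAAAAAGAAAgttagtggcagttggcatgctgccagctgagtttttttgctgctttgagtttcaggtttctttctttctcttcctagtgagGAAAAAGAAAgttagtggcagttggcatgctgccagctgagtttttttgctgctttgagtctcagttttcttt
IFI6, chr1:27672193-27672362, - strand: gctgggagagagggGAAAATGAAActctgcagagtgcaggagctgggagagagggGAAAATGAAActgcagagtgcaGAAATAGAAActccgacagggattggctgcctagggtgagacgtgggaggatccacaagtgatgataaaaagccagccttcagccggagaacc
BST2, chr19:17405631-17405800, - strand: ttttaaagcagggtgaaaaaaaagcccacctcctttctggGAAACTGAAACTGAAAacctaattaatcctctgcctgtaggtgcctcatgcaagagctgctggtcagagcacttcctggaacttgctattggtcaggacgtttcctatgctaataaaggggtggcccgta
IRF1, chr5:132490774-132490943, - strand: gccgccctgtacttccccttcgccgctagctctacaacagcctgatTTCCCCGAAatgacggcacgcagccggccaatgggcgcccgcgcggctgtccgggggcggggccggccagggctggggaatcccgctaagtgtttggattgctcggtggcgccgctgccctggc

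IFI44L carried the core at 2 places with the same bases around them, and IFI6 carried it at 3 places. In BST2 the 2 matches overlapped and shared 1 GAAA. DTX3L and PARP9, which are transcribed away from each other, shared 1 match at chr3:122564332-122564341, 6 bases before the start of DTX3L and 41 before that of PARP9. The core was not found in the windows of CMPK2, HERC6, IFI35, IRF1, IRF9, OAS1, RIGI, SAMD9L, STAT2 and XAF1, which says only that these letters are absent from those windows.

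**Figure D1:**
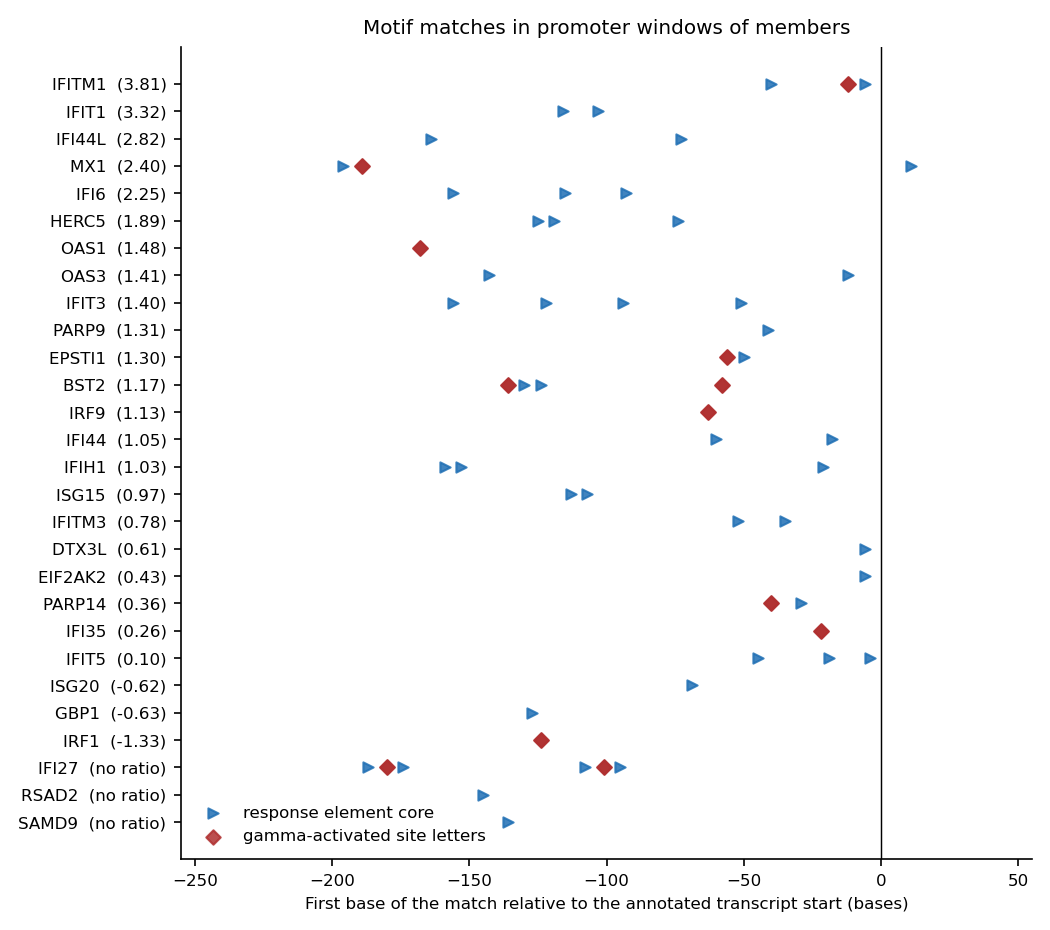
Position of motif matches in the promoter windows of members, in bases from the annotated transcript start (vertical line), with triangles for the response element core and diamonds for TTCNNNGAA letters; the number after each name is the log2 ratio of sunitinib over vehicle. Members run from IFITM1 (3.81) down to IRF1 (-1.33), and the core matches begin before the start except for 1 in MX1.

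The arrays differed in overall brightness, which bears on every ratio below. The 75th percentile of the processed signal was 165 on the vehicle array, 138 on the cordyceps array and 78.2 on the sunitinib array. Log2 ratios are therefore given between signals divided by this percentile, whereas signals are given unscaled. Probes well above background made up 45.5%, 37.8% and 38.3% of all probes, and no spot was saturated. The error after a ratio is technical: it combines the errors that the scanner software reported for the 2 signals, as 1 SD on the log2 scale, and says nothing of the spread between cultures. The files hold no cell counts, so fewer cells of a type and less RNA per cell cannot be told apart. Epithelial markers fitted the label in that 7 of 8 were well above background on every array, CDH1 being the exception. The leukocyte markers were well above background for 6, 4 and 4 of 12 on the vehicle, cordyceps and sunitinib arrays, and their signals summed to 32.6, 16.6 and 21.9 times the 75th percentile of the array. Most of each sum came from NCAM1, whose unscaled signals were 4474, 1733 and 1461. PTPRC (CD45), which defines leukocytes, went the other way with sunitinib: it read 18.4 with vehicle and 45.7 with sunitinib, a log2 ratio of 2.39, and was not well above background with cordyceps. This is 1 of 5 PTPRC probes, and its vehicle signal lay close to 18.2, the lowest signal well above background on that array. The part of these markers in the results was not tested.

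After scaling, the members stood higher on the sunitinib array than on the vehicle array as a group, whereas unscaled their median log2 ratio was -0.0040 and that of all genes -1.05. Of 38 members compared, 21 (55.3%) were more than 2-fold higher, against 6.41% of all 14898 genes compared, and 1 was more than 2-fold lower, against 6.49%. A comparison took in every gene that at least 1 of its 2 arrays measured well above background, and CMPK2 entered through the sunitinib array alone. The median log2 ratio was 1.07 over the members and 0.00 over all genes, with genes that had no ratio counted as 0. Among genes with a ratio, the medians were 1.09 over the 36 members and -0.03 over all. A ratio above 0 was found for 33 members and one below 0 for 3, and 29 and 2 of these were larger than the 95% limit of technical error. Over all genes, 6737 ratios were above 0 and 7249 below, and 2977 and 2891 of these were larger than that limit. On the cordyceps array 1 of 37 members compared was more than 2-fold higher, against 2.93% of genes, and 1 was lower, against 2.74%. The median log2 ratio of cordyceps over vehicle was 0.09 over the members and 0.00 over all genes, and the upper quartiles were 0.48 and 0.24. With cordyceps, 22 members had a ratio above 0 and 13 below, and 13 and 3 of these were larger than the technical limit. Over all genes, 6802 ratios were above 0 and 7092 below, and 2018 and 1799 were larger than that limit.

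Division by the 75th percentile raised the ratios of every gene on the dim sunitinib array, so the members were also read without it. Among genes well above background on both arrays, the unscaled signal was higher on the sunitinib array for 18 of 34 members, 52.9%, and for 4.56% of all genes. For cordyceps over vehicle the same shares were 48.5% of members (16 of 33) and 25.9% of all genes. Scaling on the array median moved the median of all genes to -0.31 for sunitinib over vehicle. It left 13 of 38 members more than 2-fold higher, against 517 of 14898 genes. No scaling moved that median to -1.05 and left 5 members, against 156 of 14899 genes. Those 5 (IFITM1, IFIT1, IFI44L, MX1 and IFI6) were more than 2-fold higher under each of the 12 settings tried, for which no count over all genes is given. The median of the members less that of all genes lay between 0.74 and 1.11 for sunitinib over vehicle under these settings, and between 0.05 and 0.24 for cordyceps over vehicle. No member was more than 2-fold from vehicle on the cordyceps array under all 5 scalings. Over all genes, 265 were higher and 222 lower under all 5, with 14774 compared in the reported setting. Few such genes would thus fall among the 37 members, and the count of 0 is near that share.

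**Figure D2:**
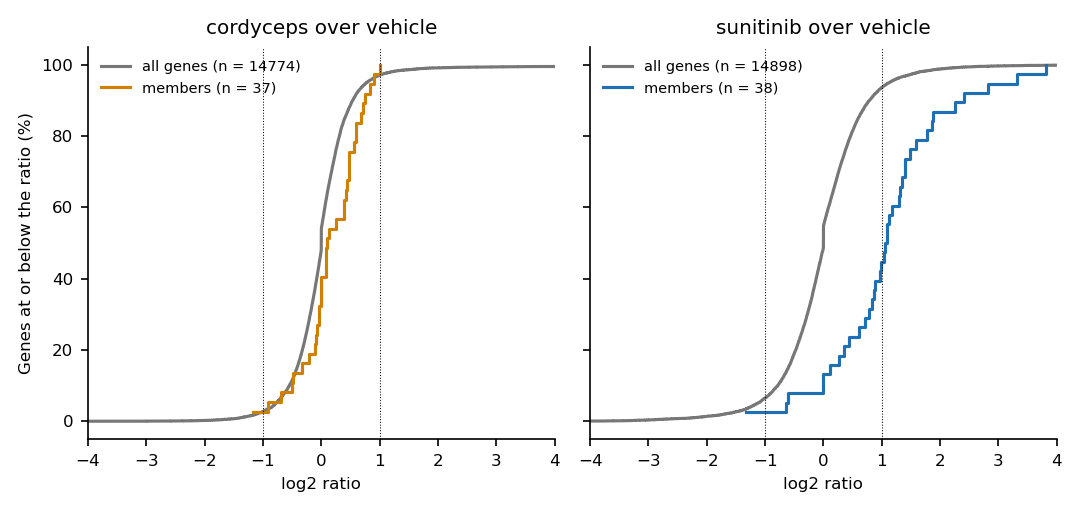
Cumulative share of genes (%) against the log2 ratio over vehicle, for all genes compared (grey) and for members (coloured), with dotted lines at 2-fold; genes without a ratio count as 0. The members' curve lies to the right of that of all genes for sunitinib (median 1.07 against 0.00). For cordyceps the medians are closer (0.09 against 0.00), with upper quartiles of 0.48 against 0.24.

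**Figure D3:**
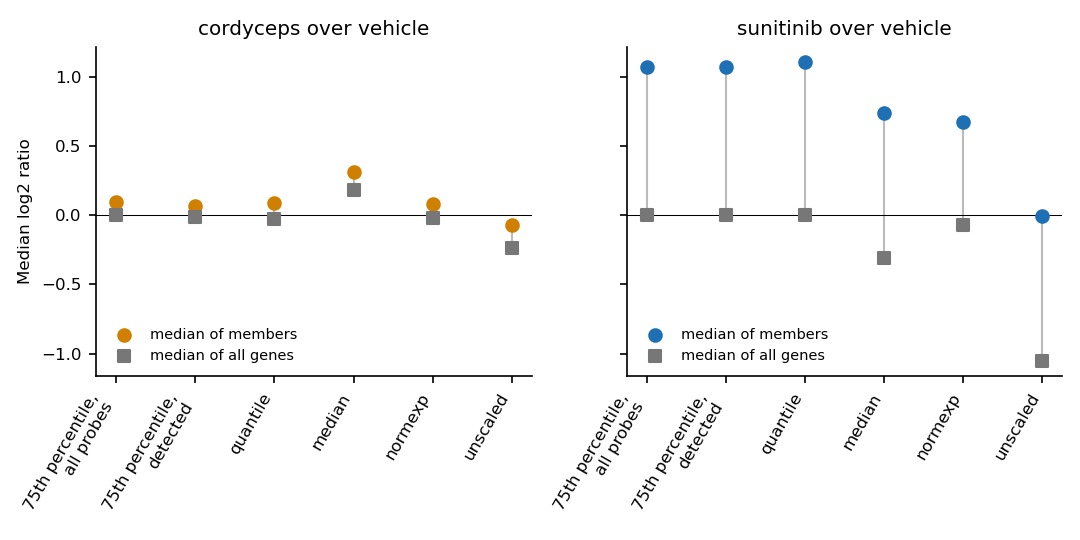
Median log2 ratio over vehicle of the members (circles) and of all genes compared (squares) under 6 settings of scaling and background correction. Under the scalings both medians largely move together. For sunitinib the members stay above all genes, from 1.07 against 0.00 with the 75th percentile to -0.0040 against -1.05 without scaling. With normexp background correction the 2 medians for sunitinib lie closer, at 0.67 against -0.07.

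Effectors against viral RNA and translation form the largest group, with 14 of 16 members compared on the sunitinib and vehicle arrays. Of these, 10 were more than 2-fold higher with sunitinib, against 6.41% of all genes, and the median log2 ratio was 1.40. None was more than 2-fold lower, against 6.49%, which is near that share for 14 genes. IFIT proteins bind viral RNA that lacks the marks of host mRNA. The IFIT1 signal was 124 with vehicle, 137 with cordyceps and 589 with sunitinib, where the ratio to vehicle was 3.32 ± 0.21, or 9.97-fold. That ratio was above 99.77% of all genes compared, whereas cordyceps over vehicle was 0.39 ± 0.22. Its neighbours on chromosome 10 differed from it on the log2 scale: for sunitinib over vehicle IFIT3 was at 1.40, IFIT2 at 1.09 and IFIT5 at 0.10.

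IFIT3 was the only member more than 2-fold higher on the cordyceps array. Its signals were 157 with vehicle, 265 with cordyceps and 196 with sunitinib, and the log2 ratio of cordyceps over vehicle was 1.01 ± 0.21. The highest unscaled signal was thus on the cordyceps array, and the call lay at the edge of the 2-fold limit. IFIT2 had signals of 319, 404 and 322 on the vehicle, cordyceps and sunitinib arrays and a cordyceps over vehicle log2 ratio of 0.60. A second IFIT2 probe gave 0.57 for sunitinib over vehicle in place of 1.09.

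MX1 and MX2, dynamin-like GTPases that trap viral nucleocapsids, lie beside each other on chromosome 21. MX1 read 1301 with vehicle, 1471 with cordyceps and 3272 with sunitinib, and the log2 ratio of sunitinib over vehicle was 2.40 ± 0.20. MX2 read 191, 127 and 329 on the same arrays, with a log2 ratio of 1.86 for sunitinib and -0.33 for cordyceps. Both were brightest on the sunitinib array before any scaling.

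The OAS enzymes sense double-stranded RNA and make the second messenger that activates RNase L, while OASL lacks that enzyme activity and aids RIGI. Their sunitinib over vehicle log2 ratios lay close together, at 1.59 for OASL, 1.48 for OAS1, 1.41 for OAS3 and 1.34 for OAS2. OASL signals were 112, 99.0 and 161 on the vehicle, cordyceps and sunitinib arrays, and those of OAS3 were 102, 116 and 129. OAS1 signals were 31.8, 29.0 and 42.2 and those of OAS2 60.1, 35.8 and 72.5, and neither gene was well above background with cordyceps. OAS2 was at least 1.40-fold lower with cordyceps than with vehicle, and OAS1 had no ratio there. For "at least" values, the dim array is held at its lowest signal well above background or at the probe's own signal, whichever is higher.

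The other effectors were spread from higher to lower. CMPK2, a mitochondrial nucleotide kinase, read 4.04 and 9.29 on the vehicle and cordyceps arrays, not well above background, and 29.7 on the sunitinib array, at least 3.43-fold higher than vehicle. RSAD2 (viperin), which lies next to CMPK2 on chromosome 2, did not reach well above background with any of the 3 treatments. EIF2AK2 (PKR), the kinase that halts translation on double-stranded RNA, read 3196, 3714 and 2052, with log2 ratios of 0.47 for cordyceps and 0.43 for sunitinib. ISG20, an exonuclease, read 2835, 3576 and 879, and its log2 ratios were 0.59 for cordyceps and -0.62 for sunitinib. It was the effector whose ratios lay on opposite sides of vehicle in that order. SAMD9 was well above background with vehicle only.

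Among the membrane proteins, 3 of 5 compared were more than 2-fold higher with sunitinib, against 6.41% of all genes. IFITM proteins sit in the plasma and endosomal membranes and block the fusion of viruses with the cell. IFITM1 had the highest ratio of all members: its signals were 82.4 with vehicle, 36.7 with cordyceps and 550.2 with sunitinib. The log2 ratio of sunitinib over vehicle was 3.81 ± 0.22, or 14.05-fold, above 99.85% of all genes compared, and that of cordyceps over vehicle was -0.91 ± 0.36. A second IFITM1 probe gave 3.66 for sunitinib and was not well above background with cordyceps.

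IFITM2 and IFITM3, on either side of IFITM1 on chromosome 11, differed from it in ratio. IFITM2 signals were 7358, 6508 and 6246 and those of IFITM3 14365, 11940 and 11716, on the vehicle, cordyceps and sunitinib arrays in turn. Their log2 ratios of sunitinib over vehicle were 0.84 and 0.78, and without scaling both signals were lower with sunitinib than with vehicle. The sequences of IFITM genes are closely alike, and whether a probe also binds the RNA of its neighbours was not tested.

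IFI6, a mitochondrial and endoplasmic reticulum protein that opposes cell death, read 435 with vehicle, 314 with cordyceps and 984 with sunitinib. Its log2 ratio was 2.25 ± 0.20 for sunitinib and -0.21 for cordyceps. BST2 (tetherin), which holds budding virus at the cell surface, read 89.6, 33.3 and 95.9. It was the only member more than 2-fold lower with cordyceps, at -1.17 ± 0.36, a ratio above that of 1.69% of genes, and it stood at 1.17 ± 0.22 with sunitinib. A second BST2 probe gave 1.22 for sunitinib and -0.47 for cordyceps, where it was not well above background. The cordyceps signal of 33.3 lay close to 30.2, the lowest signal well above background on that array. BST2 was not more than 2-fold lower with cordyceps under median scaling, the normexp background correction or the mean of probes. Without scaling, the 2 BST2 signals of the vehicle and sunitinib arrays lay close together.

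**Figure D4:**
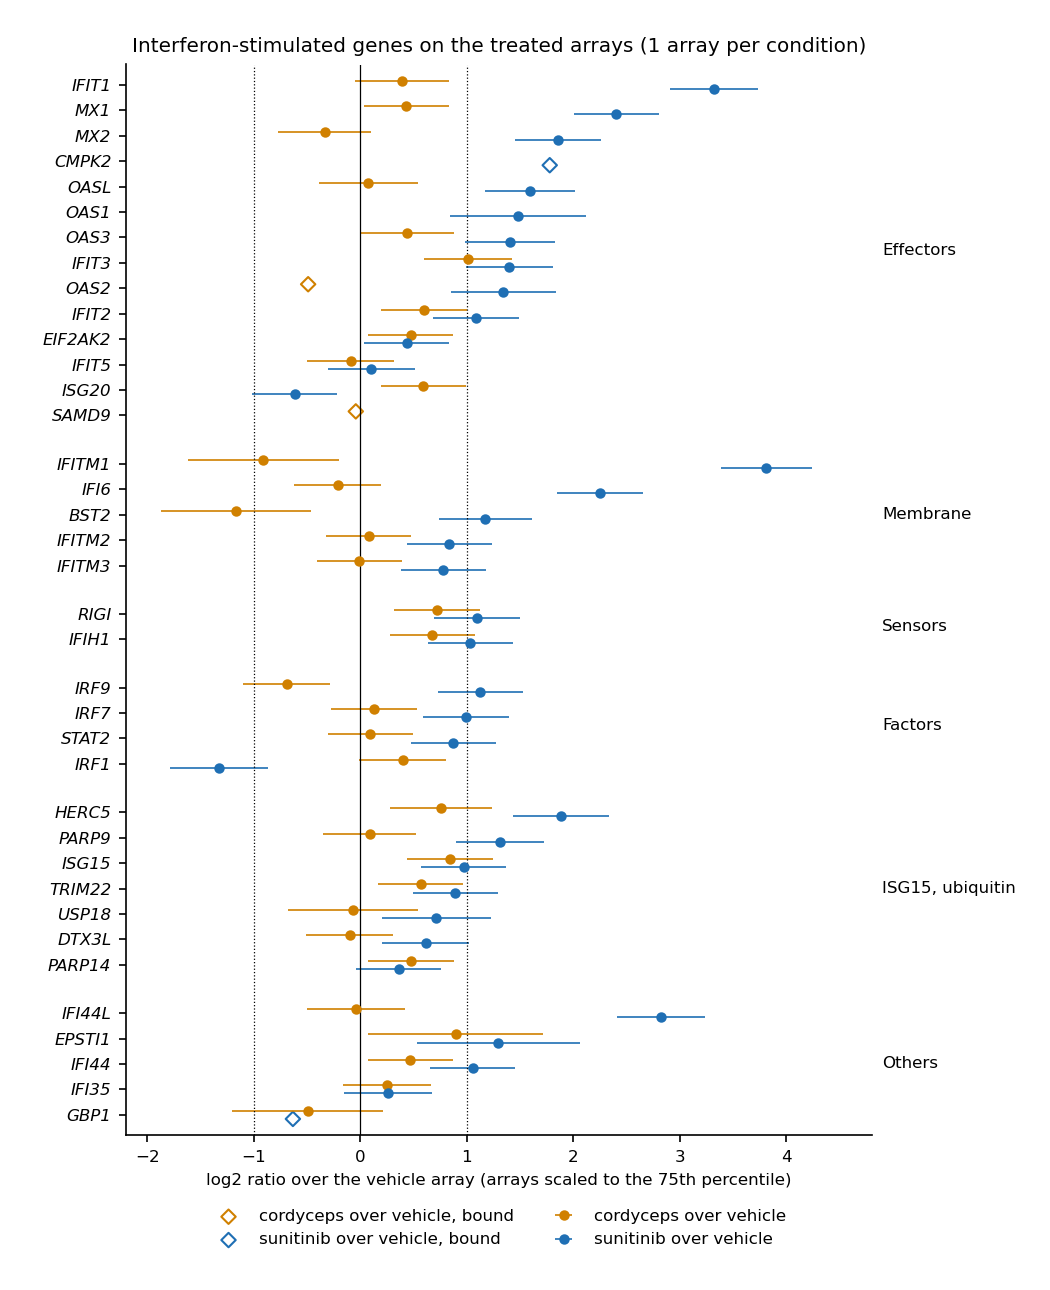
Log2 ratios over the vehicle array of the members with a ratio, by role, for cordyceps (orange) and sunitinib (blue); bars are 95% limits of technical error, open diamonds are bounds and dotted lines mark 2-fold. IFITM1 (3.81), IFIT1 (3.32) and IFI44L (2.82) lie farthest right for sunitinib, and IRF1 (-1.33) lies left of vehicle.

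Both RNA sensors were similar to each other on each array. RIGI (RIG-I) read 478, 659 and 485 on the vehicle, cordyceps and sunitinib arrays, and IFIH1 (MDA5) read 414, 554 and 402. Their log2 ratios were 0.72 and 0.68 for cordyceps. With sunitinib RIGI was 2.14-fold and IFIH1 2.05-fold higher than with vehicle after scaling, whereas unscaled the IFIH1 log2 ratio was -0.041. The unscaled signals of both were highest on the cordyceps array, and their calls with sunitinib rested on the scaling. A second RIGI probe gave log2 ratios of 1.19 for cordyceps and 0.68 for sunitinib, so which treated array stood higher depended on the probe.

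The transcription factors included the member that was lowest with sunitinib. IRF1, which acts downstream of interferon gamma, read 328 with vehicle, 361 with cordyceps and 62.0 with sunitinib. Its log2 ratio was -1.33 ± 0.23 for sunitinib, above that of 3.43% of genes, and 0.40 ± 0.21 for cordyceps. It was more than 2-fold lower under all 5 scalings but not with the normexp background correction. The 3 other factors lay on the other side of vehicle with sunitinib.

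IRF9, the DNA-binding part of ISGF3, read 397, 206 and 412, with log2 ratios of -0.69 ± 0.21 for cordyceps and 1.13 ± 0.21 for sunitinib. IRF7, which drives transcription of interferon genes, read 511, 468 and 483, with ratios of 0.13 and 0.99. STAT2 read 6039, 5395 and 5258, with ratios of 0.09 and 0.87. Without scaling, IRF7 and STAT2 were lower with sunitinib than with vehicle and IRF9 was slightly higher.

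In the ISG15 and ubiquitin group, 2 of 8 members compared were more than 2-fold higher with sunitinib, against 6.41% of all genes. ISG15 is a ubiquitin-like protein that is joined to other proteins, HERC5 is its main ligase and USP18 removes it. ISG15 read 2815, 4227 and 2623 on the vehicle, cordyceps and sunitinib arrays, with log2 ratios of 0.84 ± 0.20 and 0.97. HERC5 read 79.3, 112 and 139, with ratios of 0.76 and 1.89. USP18 read 64.3, 51.3 and 50.1, with ratios of -0.07 and 0.72. Of the 3, only HERC5 had its highest unscaled signal on the sunitinib array.

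PARP9 and DTX3L form a complex that adds ubiquitin and ADP-ribose, and they share the promoter match given above. PARP9 read 150.3, 134 and 177, with log2 ratios of 0.09 for cordyceps and 1.31 for sunitinib, and DTX3L read 326, 254 and 236, with -0.10 and 0.61. A PARP9 probe to another transcript gave -0.33 and 0.45, below 2-fold. PARP14, next to them on chromosome 3, read 2066, 2406 and 1260, with 0.48 and 0.36. TRIM22, a ubiquitin ligase with antiviral activity, read 912, 1131 and 805, with 0.57 and 0.89. HERC6 was well above background with vehicle only and had no ratio.

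The other members have less settled roles. IFI44L read 143 with vehicle, 117 with cordyceps and 481 with sunitinib, and its log2 ratio was 2.82 ± 0.21 for sunitinib, or 7.07-fold, and -0.04 for cordyceps. Its neighbour IFI44 read 402, 466 and 396, with 1.05 for sunitinib, a value that became -0.020 without scaling, and 0.47 for cordyceps. EPSTI1 read 21.0, 32.7 and 24.5, close to background, with 0.90 ± 0.42 and 1.30 ± 0.39. IFI35, which binds the protein NMI, had ratios of 0.25 and 0.26. GBP1, a GTPase best known as a target of interferon gamma, read 59.9, 35.6 and 16.5, at -0.49 for cordyceps and at least 1.55-fold lower with sunitinib. XAF1 did not reach well above background with any of the 3 treatments.

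**Figure D5:**
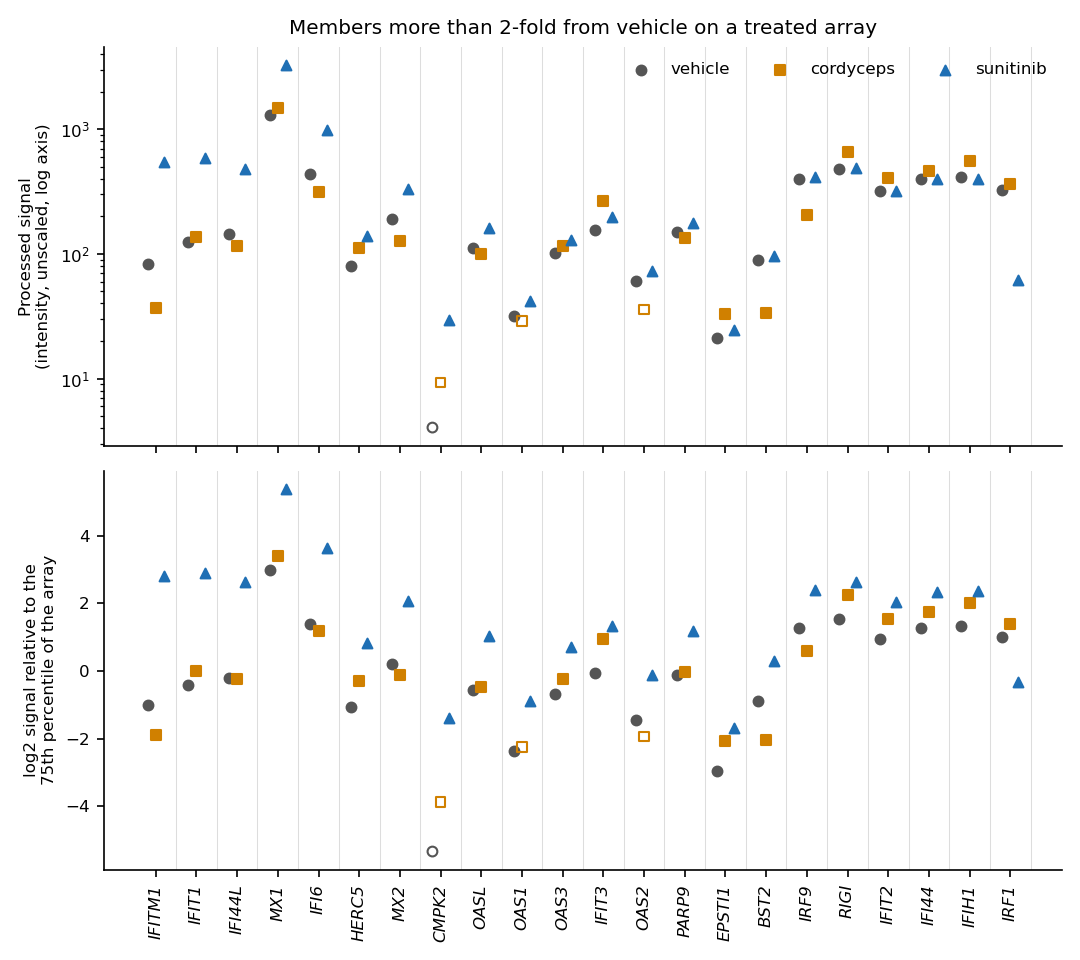
Processed signal (top, log axis, unscaled intensity) and log2 signal relative to the array's 75th percentile (bottom) on the 3 arrays for the 22 members more than 2-fold from vehicle on a treated array; open symbols are not well above background. Levels of different genes are not to be compared. Within a gene, IFITM1, IFIT1, IFI44L, MX1 and IFI6 lie highest with sunitinib in both panels, as do MX2, HERC5, OASL and others. Several, such as IFI44, IFIT3 and RIGI, do so only in the lower panel.

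Set directly against each other, the treated arrays also differed in the members. Of 36 members compared, 13 were more than 2-fold higher with sunitinib than with cordyceps, against 7.56% of genes, and 2 (IRF1 and ISG20) were lower, against 9.43%. The log2 ratio of sunitinib over cordyceps was 4.72 for IFITM1, 2.93 for IFIT1, 2.86 for IFI44L, 2.46 for IFI6, 2.34 for BST2 and 1.82 for IRF9, and -1.72 for IRF1 and -1.21 for ISG20. Of the 13, 9 held under all 5 scalings: BST2, IFI44L, IFI6, IFIT1, IFITM1, IRF9, MX1, MX2 and OAS2. Over all genes, 180 were higher under all 5, with 13876 compared in the reported setting. OAS1 and OAS2 entered the 13 through the sunitinib array alone, as neither was well above background with cordyceps. With both arrays required, 11 of 32 members were more than 2-fold higher, against 801 of 12495 genes. Under all 12 settings 8 members held, which are the 9 without OAS2, and no count over all genes is given for these. This comparison uses the same 2 treated arrays as the comparisons with vehicle, so it is no separate evidence. ISG15 was at 0.13 and EIF2AK2 at -0.038, so that some members differed little between the treatments.

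After scaling, none of the 3 interferon genes or 13 receptors, kinases and STATs compared was more than 2-fold higher with sunitinib than with vehicle. The share over all genes was 6.41%, and a count of 0 among so few genes is near it. Of the 21 listed interferon genes, 17 had a probe and 3 were well above background on at least 1 array. IFNB1 did not reach well above background with any treatment, with signals of 5.42, 6.78 and 4.05. IFNE, an epithelial type I interferon, read 223, 59.3 and 79.3 on the vehicle, cordyceps and sunitinib arrays, with log2 ratios of -1.66 for cordyceps and -0.42 for sunitinib. IFNL2, a type III interferon, read 28.3, 28.3 and 26.0, close to background and not well above it with cordyceps, and its sunitinib over vehicle log2 ratio was 0.95, or 1.94-fold higher, after scaling. IFNA4 read 79.3, 60.4 and 27.4, with -0.14 for cordyceps and -0.46 for sunitinib. Of 13 receptors, kinases and STATs compared, none was more than 2-fold higher with sunitinib, and the list median was -0.14. More than 2-fold lower were 2 (15.4%, against 6.49% of all genes), IFNAR2 at -1.07 and IFNLR1 at -1.04. IFNAR1 read 299, 199 and 129, with -0.33 for cordyceps and -0.14 for sunitinib. JAK1 read 562, 360.0 and 142, with -0.39 and -0.91, and TYK2 was well above background with vehicle only.

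Of 11 sensors and adaptors compared beside RIGI and IFIH1, none was more than 2-fold higher with sunitinib and TLR3, the endosomal sensor of double-stranded RNA, was 2.14-fold lower. With cordyceps IKBKE, a kinase that activates IRF3, was the 1 gene of this list past 2-fold, higher at 1.27 on the log2 scale. Of 8 negative regulators, 1 was more than 2-fold lower with sunitinib and none higher, and 1 was higher with cordyceps. Over all genes the shares past 2-fold were 6.41% higher and 6.49% lower with sunitinib, and 2.93% and 2.74% with cordyceps. SOCS1, which blocks JAK kinases, read 528, 244 and 105, at -0.86 for cordyceps and -1.25 for sunitinib. CISH, of the same family, was at 1.26 with cordyceps.

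A list of 50 further interferon-stimulated genes moved less than the members. With sunitinib their median log2 ratio was 0.34. Of 47 compared, 5 were more than 2-fold higher (10.6%, against 6.41% of all genes) and 2 lower (4.26%, against 6.49%). Those higher were LAMP3 (1.75), RTP4 (1.29), HELZ2 (1.16), IFI30 (1.16) and GBP5, which was at least 3.08-fold higher, and those lower were TNFSF10 (-1.28) and GBP3 (-1.08). With cordyceps, 46 were compared and the median was -0.03. LAMP3 (3.10) and IFI30 (1.32) were more than 2-fold higher (4.35%, against 2.93% of all genes) and TNFSF10 (-1.38) was lower (2.17%, against 2.74%). LAMP3, a lysosomal membrane protein, read 450 with vehicle, 3220 with cordyceps and 717.5 with sunitinib. TNFSF10 encodes TRAIL, a ligand that triggers apoptosis, and read 5504, 1777 and 1078.

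Genome position and promoter letters were also set beside the ratios. Some genes of a cluster had unlike ratios, as IFITM1 at 3.81 beside IFITM3 at 0.78, IFIT1 at 3.32 beside IFIT5 at 0.10, and IFI44L at 2.82 beside IFI44 at 1.05. Others lay closer: the OAS genes were within a narrow range, and IFITM2, IFITM3 and IRF7 were at 0.84, 0.78 and 0.99. IFIT2 and IFIT3 were at 1.09 and 1.40, and MX1 and MX2 at 2.40 and 1.86. Of the 22 members compared whose window held the response element core, 13 were more than 2-fold higher with sunitinib, with a median of 1.11. Of the 8 compared whose window did not, 4 were higher and 1 lower, with a median of 0.98. Among genes that are no members, 33 of 447 with the core (7.38%) were more than 2-fold higher with sunitinib, against 5.62% of those without it, and both medians were 0.00.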

How the data were processed

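Total RNA of 3 TK-10 cultures (vehicle, cordyceps, sunitinib) was labelled with Cy3. The authors scanned single-colour Agilent arrays with Feature Extraction 11.5.1.1, and the deposited intensity values are its background-subtracted processed signals, on a design whose header names the build hg19. The deposited value table holds the same intensity, unscaled, in 99.88%, 99.87% and 99.92% of probes within 0.01% (vehicle, cordyceps, sunitinib), with column medians of 14.4, 10.3 and 8.58. The study's methods describe a different array and cordycepin, and the labels were followed. Control spots and outlier spots (103, 121 and 63) were left out, spots of a probe averaged, signals divided by the 75th percentile of each array and log2 taken. Genes were named from accessions through RefSeq (GRCh38.p14, names and promoter windows only): 31104 of 58201 probes matched. A gene was represented by its probe with the highest mean level over the 3 arrays. Probes were compared when well above background on at least 1 array of the pair, with a bound where only 1 was, and called past 2-fold. Repeated probes had an SD of 0.049, 0.056 and 0.059 on the log2 scale within an array. The number of arrays limits the precision. The ratio step was tested on simulated data. Members and lists were chosen with earlier results of these data known. Named are all members past 2-fold in any comparison, key members and pathway genes whatever their values, and all listed pathway genes past 2-fold over vehicle. Endothelial markers were well above background for 2, 2 and 1 of 4 genes, with PECAM1 and KDR below it, and fibroblast markers for 4, 4 and 3 of 5, with signals that summed to 43.2, 13.5 and 12.4 times the 75th percentile of each array, although PDGFRB was at 0.66 on the log2 scale for sunitinib over vehicle. Their part in the results was not tested. Bright areas held 0, 573 and 48 spots and 0 member probes. Alternatives covered scaling, background correction, the filter, the choice of probe, outlier spots, bright areas and a 1.5-fold limit. The lists of members past 2-fold under every scaling, the difference between medians and the gamma-activated site were added after seeing the data. Python 3.11.15, pandas 2.3.3, R 4.3.3 and limma 3.58.1 were used. Proteins were not used here, and 1 gene of the pathway lists is not reported here.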

Additional observations from a re-analysis of the deposited data

How the results depend on the processing

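Each condition has 1 array, so leaving out a replicate was not possible and no spread between cultures is known. No paired analysis was possible because each group has 1 array. For sunitinib over vehicle, members more than 2-fold higher numbered 21 in the reported setting, 13 with median scaling, 5 with unscaled values of the deposited table and 9 with normexp. Members lower numbered 1, and 3 unscaled, 0 with normexp and 3 at 1.5-fold. The median was 0.74 with median scaling, -0.0040 unscaled and 0.67 with normexp, against 1.07. IFI44 (-0.020) and IFIH1 (-0.041) turned below vehicle unscaled. For cordyceps over vehicle, members higher numbered 1, and 0 with the percentile of detected probes, 3 with median scaling, 0 unscaled, 0 with normexp, 2 without filter and 8 at 1.5-fold. Members lower numbered 1, and 0 with median scaling, 2 unscaled, 0 with normexp, 0 with the mean of probes and 3 at 1.5-fold, and the median was 0.31 with median scaling. For sunitinib over cordyceps, members higher numbered 13, and 8 with normexp and 21 at 1.5-fold. The median for that comparison was 0.23 with median scaling, -0.036 unscaled and 0.51 with normexp. No count over all genes is given at 1.5-fold, so the member counts at that limit have no share to be read against. Over all genes, sunitinib over vehicle gave 955 higher and 967 lower, and 517 and 1927 with median scaling, 156 and 7989 unscaled, 319 and 837 with normexp, and 6232 and 1497 without filter. For cordyceps over vehicle these were 433 and 405, then 734 and 222 with median scaling, 265 and 829 unscaled, 188 and 186 with normexp, and 1615 and 965 without filter. For sunitinib over cordyceps they were 1049 and 1308, then 300 and 3512 with median scaling, 180 and 5329 unscaled, 307 and 1099 with normexp, and 2264 and 1760 without filter. Unscaled and median-scaled values move by a constant for each array by construction, and counts at 1.5-fold move with the limit itself. For the others the cause was not tested. Dim members (CMPK2, EPSTI1, OAS1, OAS2, BST2 and IFITM1 with cordyceps) lie near background.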
